A study of Mus musculus with 21 samples.

Results

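Interleukins and their receptors were followed in Hepa1-6 tumours that had been given anti-PD1 with anti-CTLA4, with B cells present or depleted. The members are the protein-coding genes whose symbol begins with Il and a digit; 1 such gene is not reported here. The rule found 83 rows with 81 symbols among the 55487 gene identifiers counted, and it used no measured value. Of these rows, 52 had enough counts to be tested, 27 were counted below that limit and 4 were at 0 in every library.

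The tumours grew from Hepa1-6, an established mouse hepatoma cell line, in C57BL/6 mice. There were 4 groups: WT mice given isotype antibody (5 libraries), WT mice given both checkpoint antibodies (5), B-cell-depleted mice given isotype antibody (6) and B-cell-depleted mice given both antibodies (5). Both antibodies together are called the combination below. By its title, the series asks what B cells contribute when this cancer is treated with the antibodies. The sources used here do not give the way B cells were depleted, the age and sex of the mice, the doses or the times. All tumours came from 1 cell line. The labels do not say that each library is a separate animal, so p-values measure only the spread between these samples, part of which may be technical.

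Interleukins are secreted signals between immune cells and between immune and tissue cells. Most of their receptors are pairs or trios of chains that share subunits: the common gamma chain serves the receptors for IL-2, IL-4, IL-7, IL-9, IL-15 and IL-21, and gp130 serves those for IL-6, IL-11 and IL-27. Most of these receptors signal through JAK kinases and STAT factors, whereas the IL-1, IL-18 and IL-33 receptors and the IL-17 receptors recruit adaptor proteins that lead to NF-kB. Bound checkpoint receptors hold T cells back, and cytokines such as IL-2, IL-12, IL-15, IL-18 and IL-21 are known to drive T and NK cells.

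Total counts were between 9.52 and 19.17 M per library (median 15.9 M), so 1 CPM (a count per M of the library total) was at least 9.52 counts. All hepatocyte and hepatoma markers were present in every group. The B-cell gene Ms4a1 was at or below 0.104 CPM in the 6 B-depleted isotype libraries, and reached 1.57 CPM in B-depleted combination library 5 against at most 0.308 CPM in the other 4 of its group. In the WT isotype group Ms4a1 was between 0.11 and 1.05 CPM. The other listed B-cell markers overlapped between these 2 isotype groups. Cd79b was at 1.65 CPM in B-depleted isotype library 3, against 0.798 to 1.38 CPM in WT isotype. Summed over 5 B-cell markers, the B-depleted isotype libraries had 5.26 to 13.8 CPM and the WT isotype libraries 7.0 to 16.0 CPM. Of these 5 markers edgeR called 0 between the isotype groups. Some libraries stood apart. WT isotype libraries 1 and 2 had summed hepatocyte and hepatoma markers of 1160 and 1270 CPM, against 2780 to 4320 in the other 3. B-depleted isotype libraries 3 and 5 held immunoglobulin transcripts at 154 and 43.4 CPM and library 4 at 14.3 CPM, against 3.69, 5.32 and 7.25 CPM in libraries 1, 2 and 6 and 3.65 to 28.7 CPM in the B-depleted combination group. The WT isotype libraries held them at 366, 171, 12.2, 31.6 and 37.4 CPM. B-depleted combination library 5 had summed neutrophil markers of 584 CPM, against 9.67 to 39.5 in the other 4. Results that depend on these libraries are given with and without them.

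The promoter of 64 of the 81 symbols was found among RefSeq promoters (GRCm38.p6). Each was read for 250 bases before the start site. Motifs were sought on both strands, and were chosen with the sequences in view. Shown are 1 receptor gene that rose strongly and 2 of the genes that fell, each with 1 match in capitals: TTCNNNGAA, the letters of a STAT-type site, in Il12rb2, and TGANTCA, those of an AP-1-type site, in Il11 and Il22ra1. They lie at chr6:67376189-67376438 (minus strand), chr7:4778142-4778391 (minus strand) and chr4:135727909-135728158 (plus strand), and the matches run from -123 to -115, -98 to -92 and -222 to -216 from the start site. The Il11 stretch lies inside the gene model whose counts are reported here (chr7:4772373-4782859), outside its exons. Those of Il12rb2 and Il22ra1 lie outside theirs.
Il12rb2: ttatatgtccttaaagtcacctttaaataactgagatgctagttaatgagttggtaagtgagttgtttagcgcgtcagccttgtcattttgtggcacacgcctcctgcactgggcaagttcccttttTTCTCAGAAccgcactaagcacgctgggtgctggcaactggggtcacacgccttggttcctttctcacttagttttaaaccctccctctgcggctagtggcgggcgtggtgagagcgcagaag
Il11: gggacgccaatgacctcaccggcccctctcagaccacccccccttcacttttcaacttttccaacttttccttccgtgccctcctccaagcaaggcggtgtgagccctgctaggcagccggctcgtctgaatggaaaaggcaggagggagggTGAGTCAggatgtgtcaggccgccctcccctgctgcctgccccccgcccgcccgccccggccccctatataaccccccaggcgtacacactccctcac
Il22ra1: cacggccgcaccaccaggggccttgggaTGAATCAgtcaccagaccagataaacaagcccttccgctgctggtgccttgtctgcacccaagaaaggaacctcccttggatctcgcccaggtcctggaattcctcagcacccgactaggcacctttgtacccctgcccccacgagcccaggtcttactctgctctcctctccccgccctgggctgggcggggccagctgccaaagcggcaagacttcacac
The STAT-type letters were in the promoters of 3 of 17 members that rose in WT tumours (Il12rb2, Il18r1 and Il7r), 0 of 5 that fell and 3 of 17 not called, and in 7.02% of 32851 promoters of the same length. The AP-1-type letters were in 3 of 17 that rose (Il15ra, Il16 and Il5ra), 3 of 5 that fell (Il11, Il20ra and Il22ra1) and 3 of 17 not called, and in 6.75% of all promoters. Of 2 further motifs sought, an NF-kB-type site (in 1.41% of all promoters) was in 1 of 17 that rose, 1 of 5 that fell and 2 of 17 not called, and an interferon-response-type site (in 2.98%) was in none of them. A match describes letters only.

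In WT tumours 25 members rose under the combination, led in fold by Il21, Il12rb2 and Il18r1, and 6 fell, led by Il11. Of the 52 members tested, 31 passed edgeR's quasi-likelihood test with a Benjamini-Hochberg adjusted p under 0.05 and are referred to as called (59.6%), against 50.0% of all genes. The risers were 48.1% of the members, against 25.0% of all genes, and the fallers 11.5%, against 25.0%. The median log2 fold change of the 52 was 0.77, and that of all genes tested was near 0. By role, 18 of 32 receptor chains rose and 4 fell (median 0.78), 6 of 17 ligands rose and 2 fell (median 0.65), and 1 of 3 soluble inhibitors or enzymes rose. Changes below are log2 fold changes ± SE, and p is adjusted over all 19061 genes tested. Where groups are said not to overlap, the share of all genes without overlap is not given here.

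**Figure D1:**
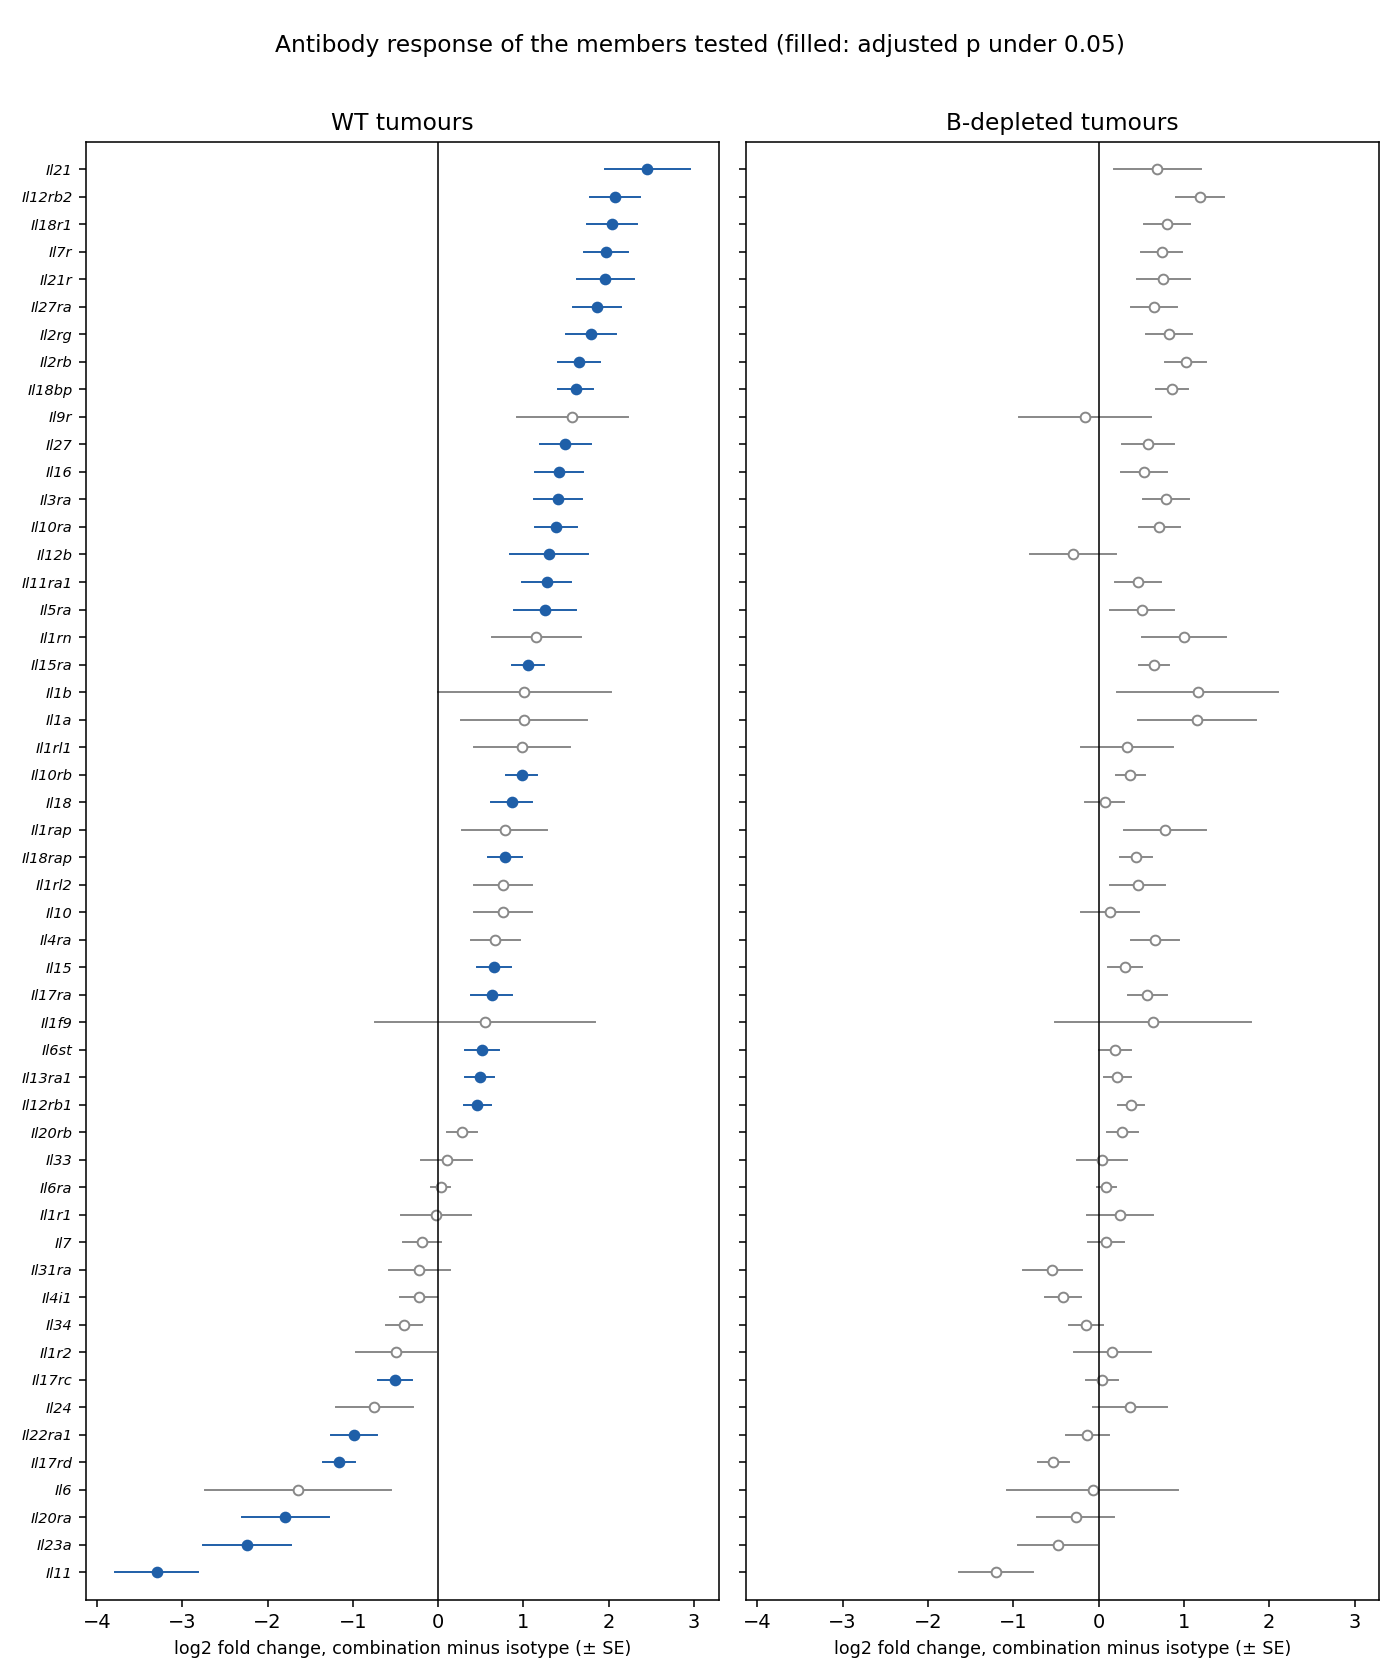
Log2 fold change (combination against isotype, x axis, ± SE) of the 52 tested members in WT (left) and B-depleted tumours (right), with filled blue points at an edgeR adjusted p under 0.05. In WT tumours 25 members rose and 6 fell, and in B-depleted tumours none passed.

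All 5 called chains of the gamma-chain receptor group rose, of 7 tested (median 1.65). Il2rb, the beta chain shared by the IL-2 and IL-15 receptors (chr15:78479256-78495271), was at 60.0, 81.2, 42.5, 56.6 and 87.6 CPM in the WT isotype libraries and at 170, 221, 190, 225 and 204 CPM under the combination. The lowest treated library stood above the highest control, and the change was 1.65 ± 0.25 (adjusted p = 0.000108). Il2rg, the common gamma chain itself (chrX:101264378-101268255), was at 21.8, 27.3, 11, 16.0 and 21.5 CPM, and at 54.2, 82.9, 55.9, 65.2 and 73.8 CPM under the combination (1.79 ± 0.29, adjusted p = 0.000154). These values did not overlap either. Il7r, the IL-7 receptor alpha chain of naive and memory T cells (chr15:9505788-9530176), went from 24.2, 22.6, 13.9, 18.2 and 20.8 CPM to 61.4, 77.3, 58.5, 91.9 and 94.7 CPM (1.97 ± 0.26, adjusted p = 4.97e-05). Il21r, the IL-21 receptor chain of T, B and NK cells (chr7:125603429-125633570), went from 19.0, 23.7, 7.35, 10.4 and 14.2 CPM to 44.6, 63.1, 39.1, 64.8 and 73.1 CPM (1.96 ± 0.33, adjusted p = 0.000193). Both groups were fully apart for these 2 receptors as well. Il15ra, which presents IL-15 to neighbouring cells, rose from 22.5 ± 4.77 to 45.8 ± 6.18 CPM (SD, n = 5 each; 1.05 ± 0.19, adjusted p = 0.00033). The other 2, Il4ra (0.67 ± 0.29, adjusted p = 0.0605) and Il9r (1.57 ± 0.65, adjusted p = 0.0517), the alpha chains for IL-4 and IL-9, did not pass.

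**Figure D2:**
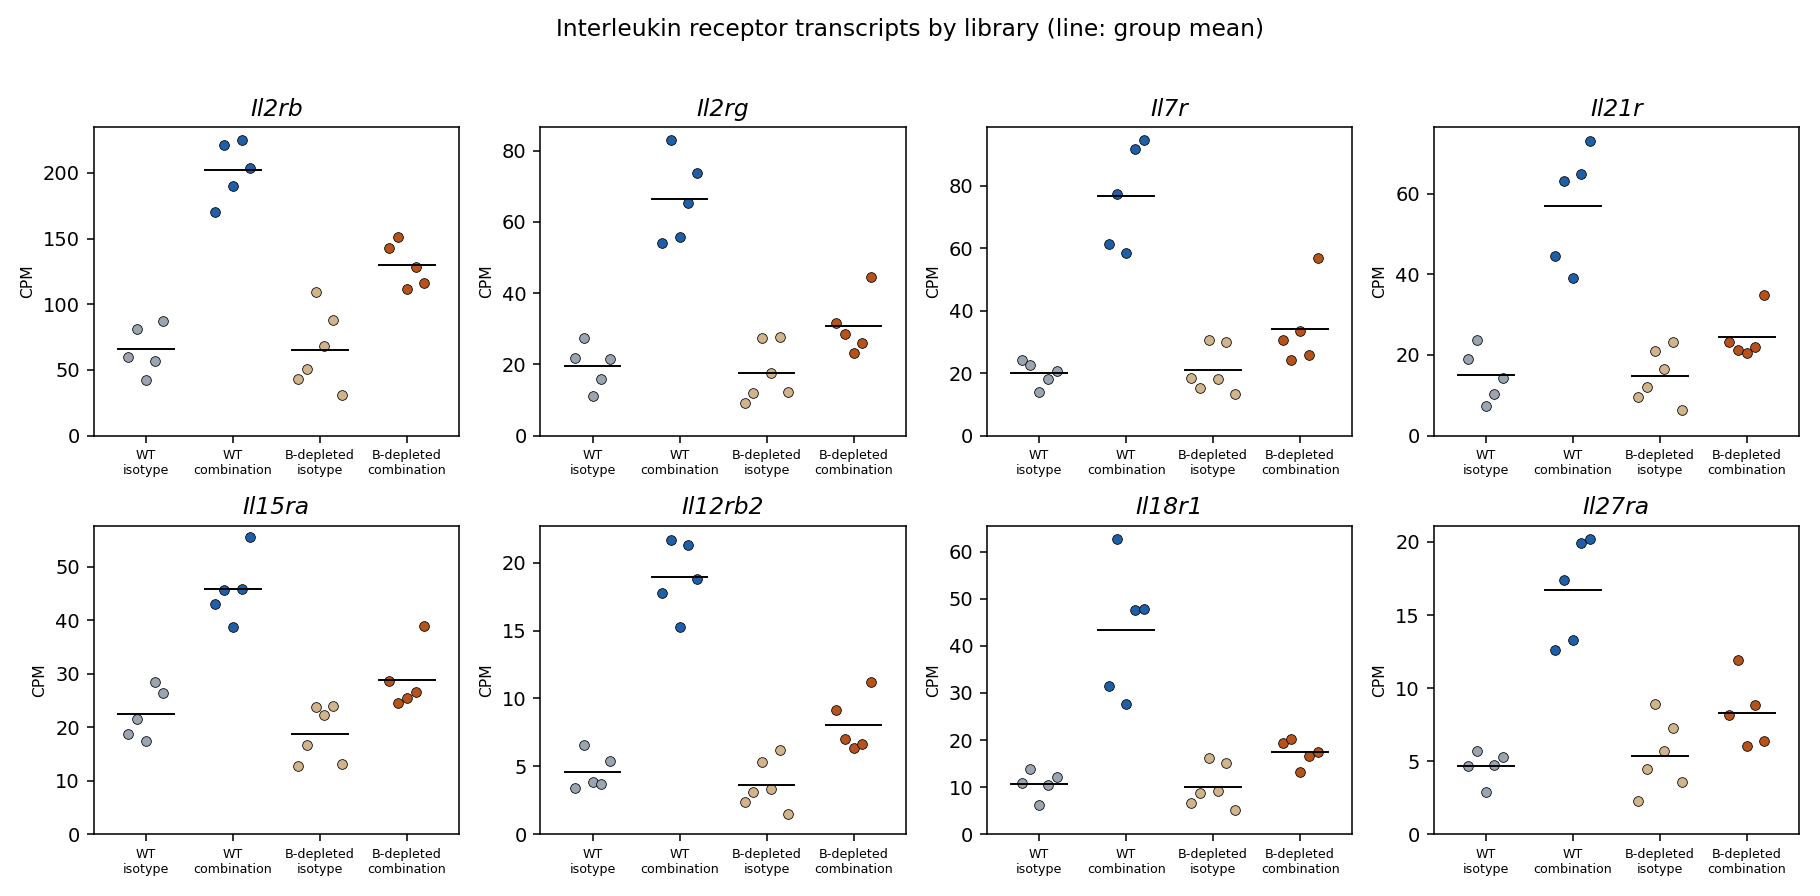
Level (CPM, linear axes from 0) of 8 receptor chains in each of the 21 libraries, by group, with a line at the group mean. All 8 lie higher in every WT combination library than in any WT isotype library. The B-depleted combination libraries lie lower than the WT combination libraries for 7 of the 8, with Il15ra overlapping. The 8 were taken from the members called in WT tumours, where 50.0% of all genes were called. The share of all genes without overlap is not given here.

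Of the gamma-chain ligands, 3 of 6 could be tested and 2 rose. Il21, the product of helper T cells that acts on B cells and CD8+ T cells, was at 0.662, 1.2, 0.412, 0.0573 and 1.1 CPM and at 3.6, 4.82, 1.82, 4.33 and 3.91 CPM under the combination. This 5.45-fold difference (2.45 ± 0.50, adjusted p = 0.000788) rests on few counts in the isotype group. Il15, which sustains NK and memory CD8+ T cells, rose from 14.0 ± 4.96 to 21.5 ± 3.4 CPM (0.65 ± 0.20, adjusted p = 0.0132). Il7, a survival factor for T cells made by stroma, was not called (-0.19, adjusted p = 0.483). The summed level of 8 T-cell markers moved with these genes, from 65.2 to 128 CPM in WT isotype to 296 to 488 CPM under the combination, and all 8 markers rose. Summed NK markers (4) ran from 2.18 to 12.6 CPM and from 9.78 to 23.1 CPM. Their part in the result was not tested, and in bulk tissue a change in the number of cells of a type and a change in RNA per cell cannot be told apart.

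In the IL-12 and gp130 families 5 of 7 tested receptor chains rose and 2 were not called. Of 5 tested ligands 2 rose, 2 fell and 1 was not called. Il12rb2, the signalling chain of the IL-12 receptor that marks T helper 1 cells (chr6:67291318-67376188), was at 3.42, 6.59, 3.82, 3.72 and 5.41 CPM and at 17.8, 21.7, 15.3, 21.3 and 18.8 CPM under the combination (2.07 ± 0.29, adjusted p = 6.02e-05). It had the largest rise among the members with a mean of at least 1 CPM in every group, and its groups did not overlap. Its partner Il12rb1 changed less (0.46 ± 0.16, adjusted p = 0.0204), from 40.5 ± 6.53 to 54.9 ± 8.51 CPM. Il27ra, which binds IL-27 together with gp130, was at 4.64, 5.72, 2.88, 4.75 and 5.29 CPM and at 12.6, 17.4, 13.3, 19.9 and 20.2 CPM (1.86 ± 0.28, adjusted p = 0.000103), again with no overlap. Il27, the p28 subunit of its ligand, rose from 1.32 ± 0.317 to 3.66 ± 0.611 CPM (1.49 ± 0.30, adjusted p = 0.000755), and Ebi3, which encodes the other subunit, rose by 1.41 ± 0.26. The IL-12 p40 subunit gene Il12b rose from 0.933 ± 0.445 to 2.27 ± 0.562 CPM (1.30 ± 0.46, adjusted p = 0.0254), while Il12a, for the p35 subunit, had 3 counts in all WT isotype libraries and 33 in the WT combination libraries and was not tested. Il6st, which encodes gp130, rose by 0.51 ± 0.20 (adjusted p = 0.0421), and Il6ra, the IL-6 receptor chain made in quantity by hepatocytes, was at 110 ± 22.9 and 110 ± 5.64 CPM (0.03 ± 0.11, adjusted p = 0.869). Il6 itself was between 0.732 and 11.9 CPM in WT isotype and between 0.503 and 4.56 CPM under the combination, with overlap (-1.64 ± 1.09, adjusted p = 0.216).

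IL-18 and every tested component of its receptor rose. Il18r1, the IL-18 binding chain (chr1:40465552-40500854), was at 10.9, 13.9, 6.17, 10.4 and 12.2 CPM and at 31.4, 62.6, 27.7, 47.7 and 47.9 CPM under the combination (2.04 ± 0.29, adjusted p = 6.12e-05). Its partner chain Il18rap rose by 0.78 ± 0.20 (adjusted p = 0.00349), and Il18 itself from 5.40 ± 1.47 to 9.67 ± 1.98 CPM (0.86 ± 0.24, adjusted p = 0.00605). Il18bp, a secreted protein that binds and blocks IL-18 and is induced by interferon-gamma (chr7:102014885-102018690), was at 36.8, 50.6, 25.0, 30.6 and 41.7 CPM and at 103, 105, 95.0, 137 and 113 CPM (1.61 ± 0.20, adjusted p = 3.82e-05). It had the smallest p of all members, and both its groups and those of Il18r1 were fully apart. Il18r1 and Il18rap are the last 2 of 6 receptor genes that lie side by side on chromosome 1 over 477.6 kb (chr1:40074079-40551705). Along that stretch the changes were -0.49 (Il1r2, a decoy receptor for IL-1), -0.02 (Il1r1, its signalling receptor), 0.76 (Il1rl2, the IL-36 receptor), 0.98 (Il1rl1, the IL-33 receptor ST2), 2.04 (Il18r1) and 0.78 (Il18rap), and only the last 2 were called.

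**Figure D3:**
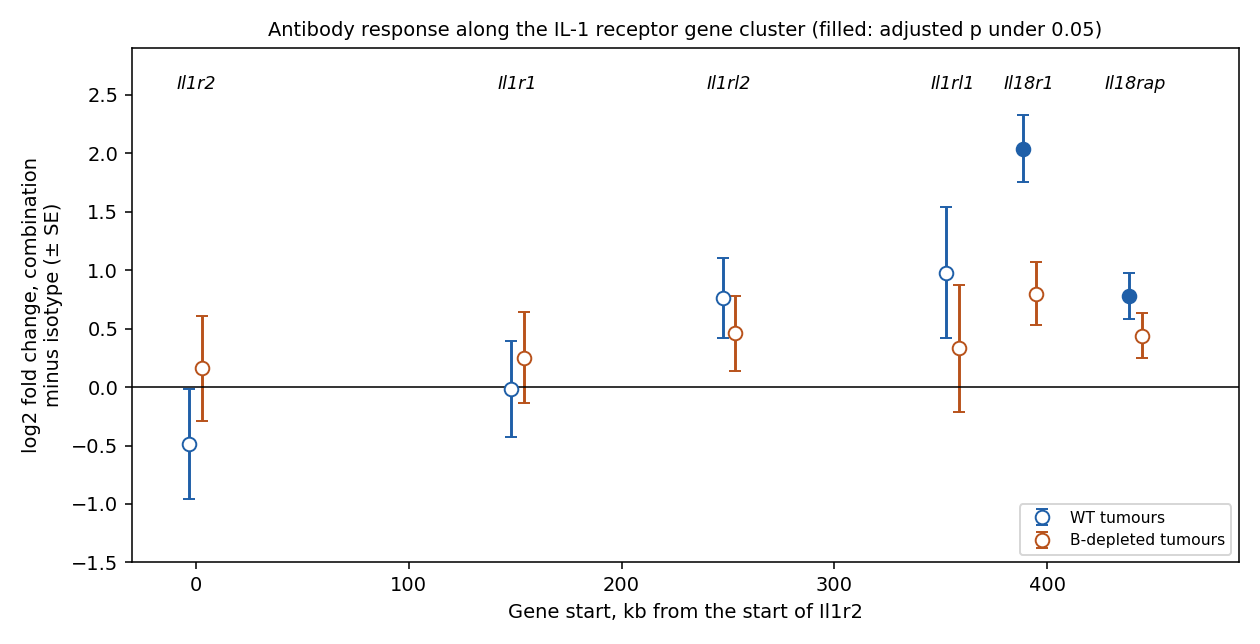
Log2 fold change (± SE, combination against isotype) of the 6 neighbouring IL-1 family receptor genes of chromosome 1 in WT (blue) and B-depleted tumours (orange, points of a gene set slightly apart), against the distance of their start from that of Il1r2 in kb; filled points were called. In WT tumours Il18r1 stands highest at 2.04 and Il1r2 and Il1r1 lie below 0, and no gene of the B-depleted comparison was called.

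Of the 5 tested receptor chains of the IL-10 family 2 rose, Il10ra and Il10rb, and 2 fell, described below. Il16 and the tested receptor chains for IL-3, IL-5, IL-11 and IL-13 also rose. Of the 3 tested chains of the IL-17 receptor family 1 rose, Il17ra, and 2 fell, also described below. Il10ra, the IL-10 binding chain of leukocytes, was at 55.4, 64.6, 30.0, 44.4 and 50.4 CPM and at 90.4, 130, 96.1, 145 and 167 CPM (1.38 ± 0.25, adjusted p = 0.000333), with no overlap. Il10rb, the chain shared with the IL-22 and interferon-lambda receptors, rose by 0.98 ± 0.18 (adjusted p = 0.00036). Il10 was lower in level, at 1.41 ± 0.331 and 2.36 ± 0.679 CPM, and was not called (0.76 ± 0.34, adjusted p = 0.0676). Il16, a chemoattractant for CD4+ cells, went from 19.2 ± 5.61 to 50.4 ± 14.8 CPM (1.42 ± 0.28, adjusted p = 0.000654). Il3ra and Il5ra, the alpha chains for IL-3 and IL-5, rose by 1.40 ± 0.28 and 1.25 ± 0.36, Il11ra1 for IL-11 by 1.27 ± 0.29, Il17ra for IL-17 by 0.63 ± 0.24 and Il13ra1 for IL-13 by 0.49 ± 0.17. Il5ra was at 0.546 ± 0.0588 CPM in the isotype group, so its change rests on few counts. Summed macrophage markers (7, all of which rose) ran from 695 to 1460 CPM in WT isotype and from 1680 to 3350 CPM under the combination; their part in the result was not tested.

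The 6 members that fell were Il11, Il23a, Il17rd, Il17rc, Il22ra1 and Il20ra. Il11, a gp130 cytokine of stromal and tumour cells (chr7:4772373-4782859), was at 20.8, 19.0, 5.7, 7.85 and 9.27 CPM and at 1.01, 1.21, 2.58, 0.89 and 0.521 CPM under the combination, a 9.83-fold difference without overlap (-3.30 ± 0.49, adjusted p = 9.07e-05). It was the largest change of any tested member in this comparison. Il23a, the p19 subunit of IL-23, was at 2.87, 1.66, 1.82, 2.0 and 2.54 CPM and at 0.675, 0.317, 0.881, 0.237 and 0.13 CPM (-2.24 ± 0.52, adjusted p = 0.00197). Il17rd, an IL-17 receptor relative that also restrains fibroblast growth factor signalling (chr14:27038941-27107286), was at 177, 170, 116, 115 and 124 CPM and at 69.6, 73.0, 83.8, 42.5 and 40.0 CPM (-1.16 ± 0.19, adjusted p = 0.000152). Neither of these 2 overlapped between the groups. Il22ra1, the epithelial chain of the IL-22 receptor, fell from 14.0 ± 1.89 to 6.97 ± 3.65 CPM (-0.99 ± 0.27, adjusted p = 0.00527), and Il20ra, for IL-20, from 0.658 ± 0.252 to 0.183 ± 0.0926 CPM (-1.79 ± 0.51, adjusted p = 0.00695), on few counts. Il17rc, the partner of Il17ra in the IL-17 receptor, fell by 0.51 ± 0.20 on the log2 scale (adjusted p = 0.0423), with WT combination library 3 at 27.2 CPM, above all 5 control libraries. Summed hepatocyte and hepatoma markers (6, all of which fell) ran from 1160 to 4320 CPM in WT isotype. Under the combination they ran from 146 to 1260 CPM. Summed fibroblast markers went the other way, from 2660 to 5030 CPM to 7280 to 26000 CPM (4 of 6 rose, 0 fell). Summed B-cell markers went from 7.0 to 16.0 CPM to 30.4 to 67.2 CPM (5 of 5 rose). Of 5 endothelial markers 3 rose and 0 fell. The part of all these markers in the result was not tested.

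**Figure D4:**
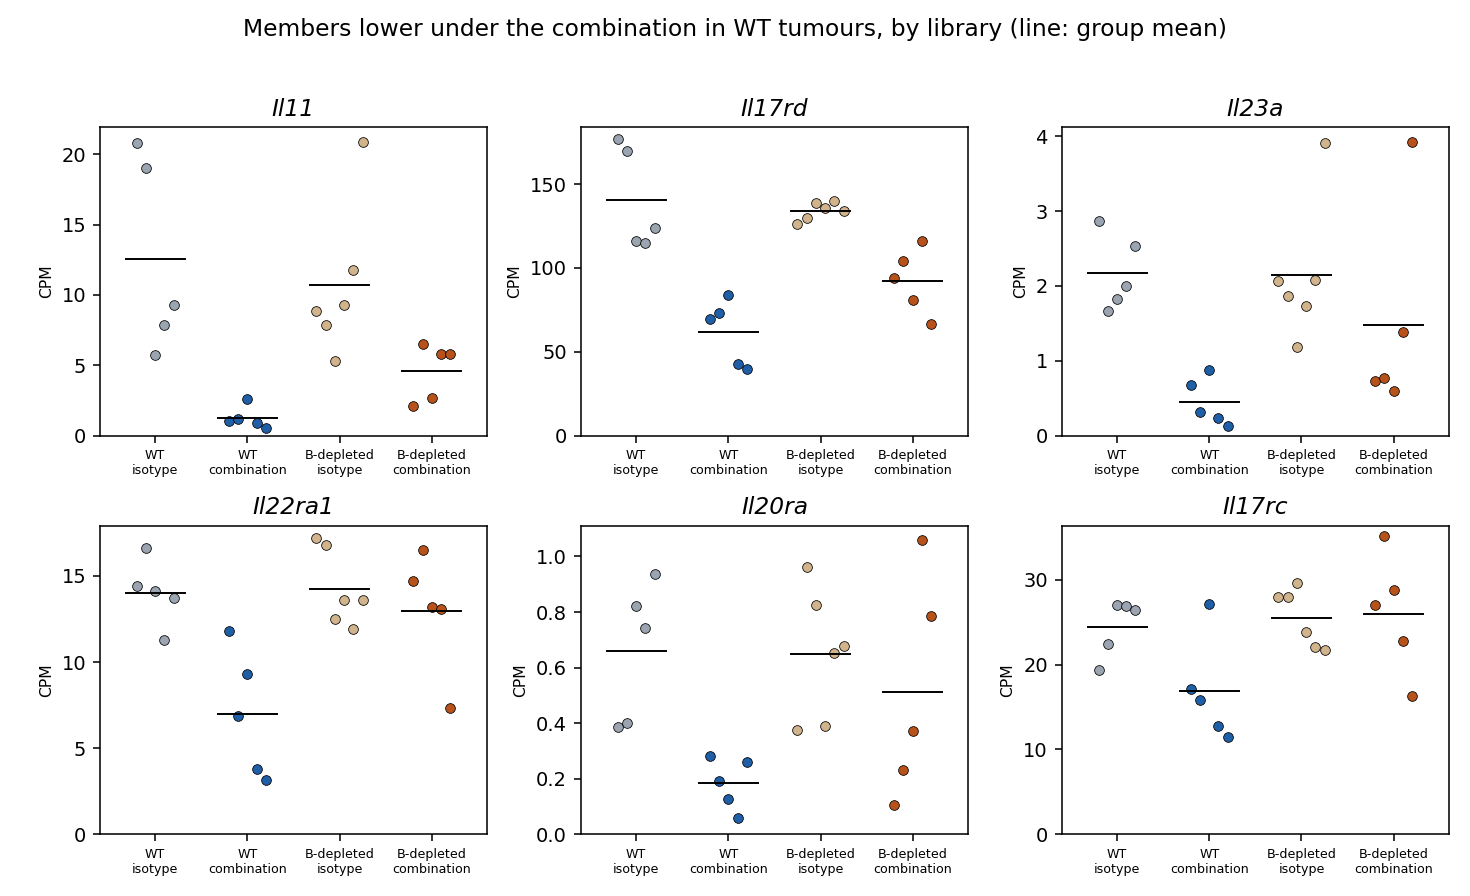
Level (CPM, linear axes from 0) of the 6 members that fell in WT tumours in each of the 21 libraries, by group, with a line at the group mean. Il11, Il23a, Il17rd and Il20ra do not overlap between WT isotype and WT combination. The share of all genes without overlap is not given here. The B-depleted combination mean lies above the WT combination mean in all 6 panels.

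Of the other gp130 and IL-12 family genes that carry no interleukin symbol, Lif (-1.07), Lifr (-0.68) and Clcf1 (-0.53) fell. Among 13 tested partner chains and related cytokines, 6 rose and 5 fell, the risers including Csf2rb (1.14) and Csf2rb2 (1.47), the signalling chains of the IL-3 and IL-5 receptors. The signalling genes below the receptors moved mostly upward: 10 of 11 JAK and STAT genes rose and 1 fell (median 0.65). Jak1, the kinase of most interleukin receptors, rose by 0.81 ± 0.13, and Stat4, which relays IL-12, from 3.99 ± 1.75 to 10.9 ± 2.48 CPM (1.48 ± 0.33, adjusted p = 0.00142). Jak2 fell from 350 ± 30.8 to 230 ± 35.3 CPM (-0.59 ± 0.10, adjusted p = 0.000285). Feedback inhibitors (12) had 5 that rose and 2 that fell, led by Socs1, an inhibitor of JAK kinases (1.23 ± 0.21), and Cish, a STAT5 target (1.07 ± 0.19). Of 8 inflammasome and processing genes 5 rose, among them Pycard (1.49 ± 0.29, adjusted p = 0.000525) and Casp1, the protease that matures IL-1 beta and IL-18 (0.74). Of 10 adaptors and kinases below the IL-1 receptor 1 rose (Myd88, 0.77 ± 0.17) and 3 fell (Tollip, Map3k7 and Tab1).

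Y-linked transcripts moved with the treatment as well, from a summed 47.6 to 79.2 CPM in WT isotype to 135 to 250 CPM under the combination, and Xist from 2820 to 3300 CPM to 723 to 2290 CPM. With the Y-linked level as a covariate 1 of the 52 members was called (Il11; 0.404% of all genes), and 10 of the 31 called members had the opposite sign; with 5 libraries a group whose Y-linked levels do not overlap, this covariate and the treatment cannot be told apart. Of the 31 calls, 25 held in all 21 fits that leave out 1 library. Il12b, Il12rb1, Il13ra1, Il17ra, Il17rc and Il6st kept theirs in 18, 19, 18, 15, 14 and 8 of the 21 fits. Without WT combination library 5 the calls of Il13ra1, Il17ra, Il17rc and Il6st were lost (edgeR adjusted p = 0.0632, 0.111, 0.125 and 0.131).

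In B-depleted tumours no member passed the test, and Il18bp, Il2rb and Il12rb2 had the smallest p. edgeR called 0 of 52 members (0.341% of all genes), 18 had an unadjusted p under 0.05 (14.3% of all genes did), and the median was 0.37 with 41 of 52 above 0. DESeq2 called 4 (2.08% of all genes): Il12rb2 (1.18, adjusted p = 0.00414), Il18bp (0.85, adjusted p = 0.00402), Il2rb (1.01, adjusted p = 0.0043) and Il15ra (0.64, adjusted p = 0.0379). Il2rb had a lowest, median and highest value of 31.2, 59.3 and 109 CPM in the 6 isotype libraries and was at 143, 151, 112, 128 and 116 CPM under the combination (edgeR 1.02 ± 0.24, adjusted p = 0.0649). Il12rb2 went from 1.46, 3.24 and 6.17 CPM (lowest, median and highest) to 9.14, 7.01, 6.33, 6.66 and 11.2 CPM (1.19 ± 0.28, adjusted p = 0.0649). Il18bp went from 16.3, 34.4 and 48.3 CPM to 64.3, 54.8, 58.2, 57.2 and 61.0 CPM (0.86 ± 0.19, adjusted p = 0.0599). For these 3 genes, as for Il15ra (0.65 ± 0.18, adjusted p = 0.117), the groups did not overlap. Il2rg came next (0.83 ± 0.27, adjusted p = 0.178), and its groups overlapped. Il11 was at 5.31, 9.09 and 20.9 CPM (lowest, median and highest) under isotype and at 2.1, 6.55, 2.68, 5.77 and 5.78 CPM under the combination (-1.20 ± 0.43, adjusted p = 0.209). Summed T-cell markers ran from 42.3 to 168 CPM and from 176 to 245 CPM under the combination, and edgeR called 3 of the 8 higher. No gene of the JAK and STAT, feedback, inflammasome, IL-1 adaptor or partner-chain lists was called by edgeR in this comparison.

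Left without isotype libraries 3, 4 and 5, the 3 with the most immunoglobulin of their group, the B-depleted comparison had 10 called members (5.4% of all genes), all higher: Il2rb, Il12rb2, Il18bp, Il15ra, Il2rg, Il18r1, Il10ra, Il27ra, Il21r and Il7r. Il2rb was then at 1.65 (adjusted p = 0.000187) and Il12rb2 at 1.82. These 3 libraries also had the highest summed T-cell markers of the group (168, 124 and 128 CPM, against 57.8, 73.9 and 42.3) and the highest Il2rb (109, 67.9 and 88.3 CPM, against 42.8, 50.7 and 31.2), so leaving them out lowers the isotype mean by construction. Leaving out isotype library 3 or library 5 alone gave 3 calls each, Il12rb2, Il18bp and Il2rb, with 0.927% and 0.86% of all genes called.

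Under isotype antibody, B-cell depletion was not accompanied by a called change in any member. edgeR called 0 of 52 (0.0% of all genes), DESeq2 called 0, and 1 member had an unadjusted p under 0.05 (2.95% of all genes did), Il6ra (-0.23 ± 0.11, adjusted p = 1.0). The median difference was -0.07. The next 4 by p were Il31ra (0.59 ± 0.34), Il6st (-0.30 ± 0.19), Il15ra (-0.28 ± 0.18) and Il1f9 (1.66 ± 1.24), all at an adjusted p of 1.0.

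Under the combination, 18 members were lower in B-depleted than in WT tumours, led by Il18r1, Il7r, Il18bp and Il12rb2 in p, and 6 were higher. Of the 32 receptor chains tested 12 were lower and 4 higher. Of 52 members 24 were called (46.2%, against 29.1% of all genes), 18 lower (34.6%, against 13.5%) and 6 higher (11.5%, against 15.5%), with a median of -0.36. The 5 called gamma-chain chains and 4 called gp130 and IL-12 receptor chains were all lower. Il18r1 was at 19.3, 20.2, 13.2, 16.7 and 17.4 CPM in the B-depleted libraries, all below the lowest WT combination value of 27.7 CPM (-1.34 ± 0.28, adjusted p = 0.00679). Il7r was at 30.7, 24.1, 33.4, 25.8 and 56.8 CPM, against 58.5 CPM in the lowest WT library (-1.17 ± 0.26, adjusted p = 0.00792). Il12rb2 (-1.24 ± 0.28, adjusted p = 0.00817) and Il18bp (-0.92 ± 0.20, adjusted p = 0.00792) were apart in the same way. Il21r, at 23.1, 21.3, 20.6, 22.0 and 34.8 CPM, was lower by -1.23 ± 0.32 (adjusted p = 0.0128), Il2rg, at 31.6, 28.5, 23.2, 26.1 and 44.5 CPM, by -1.12 ± 0.28 (adjusted p = 0.0121), and Il27ra by -1.03 ± 0.28 (adjusted p = 0.0146), each without overlap. The ligands Il18 (-0.94 ± 0.24, adjusted p = 0.0123), Il21 (-1.86 ± 0.49, adjusted p = 0.0137), Il12b (-1.77 ± 0.49, adjusted p = 0.0164), Il27 (-0.95 ± 0.30, adjusted p = 0.0262) and Il16 (-0.93, adjusted p = 0.0214) were lower too. Il21 was at 0.945, 0.539, 0.744, 0.894 and 1.93 CPM, and 1 WT value, 1.82 CPM, lay below the highest of these. Il2rb, at 112 to 151 CPM against 170 to 225 CPM, did not overlap but missed the threshold (-0.66 ± 0.25, adjusted p = 0.0506).

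Il9r was lower by -2.07 ± 0.71 (adjusted p = 0.0367) on few counts, and Il11ra1 (-0.86), Il3ra (-0.80), Il15ra (-0.68), Il6st (-0.62) and Il10rb (-0.60) by less. Of 11 JAK and STAT genes 6 were lower, Stat4 by -1.13, and Jak2 was higher (0.39); 3 of 8 inflammasome and processing genes were lower (Casp1, Nlrp1b and Pycard). The 6 that were higher are the 6 that fell in WT tumours. Among them were Il11 (1.87 ± 0.49, adjusted p = 0.013), Il23a (1.73 ± 0.54) and Il20ra (1.46 ± 0.53). The others were Il22ra1 (0.87 ± 0.27), Il17rc (0.60 ± 0.20) and Il17rd (0.56 ± 0.19). All the lower members except Il9r are likewise among those that rose in WT tumours. Both comparisons use the same WT combination libraries, so neither match is a separate observation. In this comparison 6 of 8 T-cell, 6 of 7 macrophage, 5 of 5 B-cell, 3 of 5 dendritic-cell and 1 of 4 NK markers were lower, and all 6 hepatocyte and hepatoma markers were higher, at 851 to 2450 CPM against 146 to 1260 CPM. Their part in the result was not tested. Y-linked transcripts summed to 85.9 to 169 CPM, against 135 to 250 CPM in WT tumours, and with their level as a covariate 0 of the 52 members were called by edgeR (9 at an unadjusted p under 0.05; 0.021% of all genes called). Without B-depleted combination library 5, 30 members were called (39.3% of all genes), of which 21 had been called with it; Il18rap (-0.67, adjusted p = 0.00365), Il10 (-1.09, adjusted p = 0.019) and Il1rl1 (-1.42, adjusted p = 0.0433) were among the additions. With 1 library left out the count fell to 12 or 11 (WT combination library 4 or 5) and to 14, 15 and 15 (B-depleted combination library 1, 3 or 4), while the share of all genes called fell to 11.3%, 11.7%, 18.8%, 15.7% and 17.2%. In every such fit 11 of the 24 were called: Il11, Il12b, Il12rb2, Il18, Il18bp, Il18r1, Il21, Il21r, Il27ra, Il2rg and Il7r.

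Whether the antibody response itself differed between WT and B-depleted tumours was tested as an interaction. edgeR called 0 of 52 members (0.0262% of all genes), with 18 at an unadjusted p under 0.05 (25.6% of all genes were) and a median of -0.31. The smallest adjusted p values were those of Il7r (-1.23 ± 0.35, adjusted p = 0.0898), Il11 (2.10 ± 0.63, adjusted p = 0.0919), Il18r1 (-1.24 ± 0.39, adjusted p = 0.0965), Il27ra (-1.21 ± 0.39, adjusted p = 0.1) and Il21r (-1.20 ± 0.44, adjusted p = 0.124). DESeq2 called 4 (6.35% of all genes): Il11 (2.10, adjusted p = 0.0249), Il7r (-1.23, adjusted p = 0.0251), Il18r1 (-1.25, adjusted p = 0.0336) and Il27ra (-1.22, adjusted p = 0.0366). Without B-depleted combination library 5 edgeR called 2, Il7r (-1.52 ± 0.31, adjusted p = 0.0296) and Il10rb (-0.80 ± 0.22, adjusted p = 0.0418), against 7.14% of all genes. Without WT isotype libraries 1 and 2 it called 5, Il21r (-1.69, adjusted p = 0.0317), Il7r (-1.41, adjusted p = 0.0396), Il18r1, Il18bp and Il10rb, against 10.1% of all genes. Leaving out WT combination library 3 gave 4 calls, Il11, Il17rc, Il18r1 and Il7r, against 7.97% of all genes. Without B-depleted isotype libraries 3, 4 and 5 it called 0, with 4 members at an unadjusted p under 0.05, a median of -0.10 and 0.0% of all genes called.

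The IL-1 cytokines varied widely between libraries of 1 group, and neither Il1a nor Il1b was called in any comparison. Il1b, the inflammatory cytokine of neutrophils and macrophages, was at 21.8, 20.9, 35.4, 46.7 and 32.0 CPM in WT isotype and at 26.0, 52.7, 22.1, 37.2 and 175 CPM in WT combination (1.01 ± 1.01, adjusted p = 0.413). It ran from 11.5 to 159 CPM (median 61.3) in B-depleted isotype and was at 14.5, 12.2, 16.1, 51.6 and 690 CPM in B-depleted combination (1.16 ± 0.94, adjusted p = 0.59). Without the last library this change was -1.63 ± 0.76 (adjusted p = 0.547), so 1 library set the sign. The same library was 13.6 times the mean of the other 4 for Il1a, 34.7 times for the IL-36 family cytokine gene Il1f9, 11.3 times for Il6 and 7.17 times for Il1rn, which encodes the IL-1 receptor antagonist. Without it the changes of Il1a and Il1rn went from 1.15 to -0.73 and from 1.00 to -0.21. Neutrophil markers (7) summed to 584 CPM in this library and to 156 CPM in WT combination library 5, the other library with high Il1b in a treated group; the 3 B-depleted isotype libraries with Il1b at 159, 99.9 and 133 CPM had sums of 158, 97.1 and 351 CPM. In WT isotype the sum ran from 7.23 to 120 CPM while Il1b stayed at or below 46.7 CPM. Their part in the result was not tested.

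**Figure D5:**
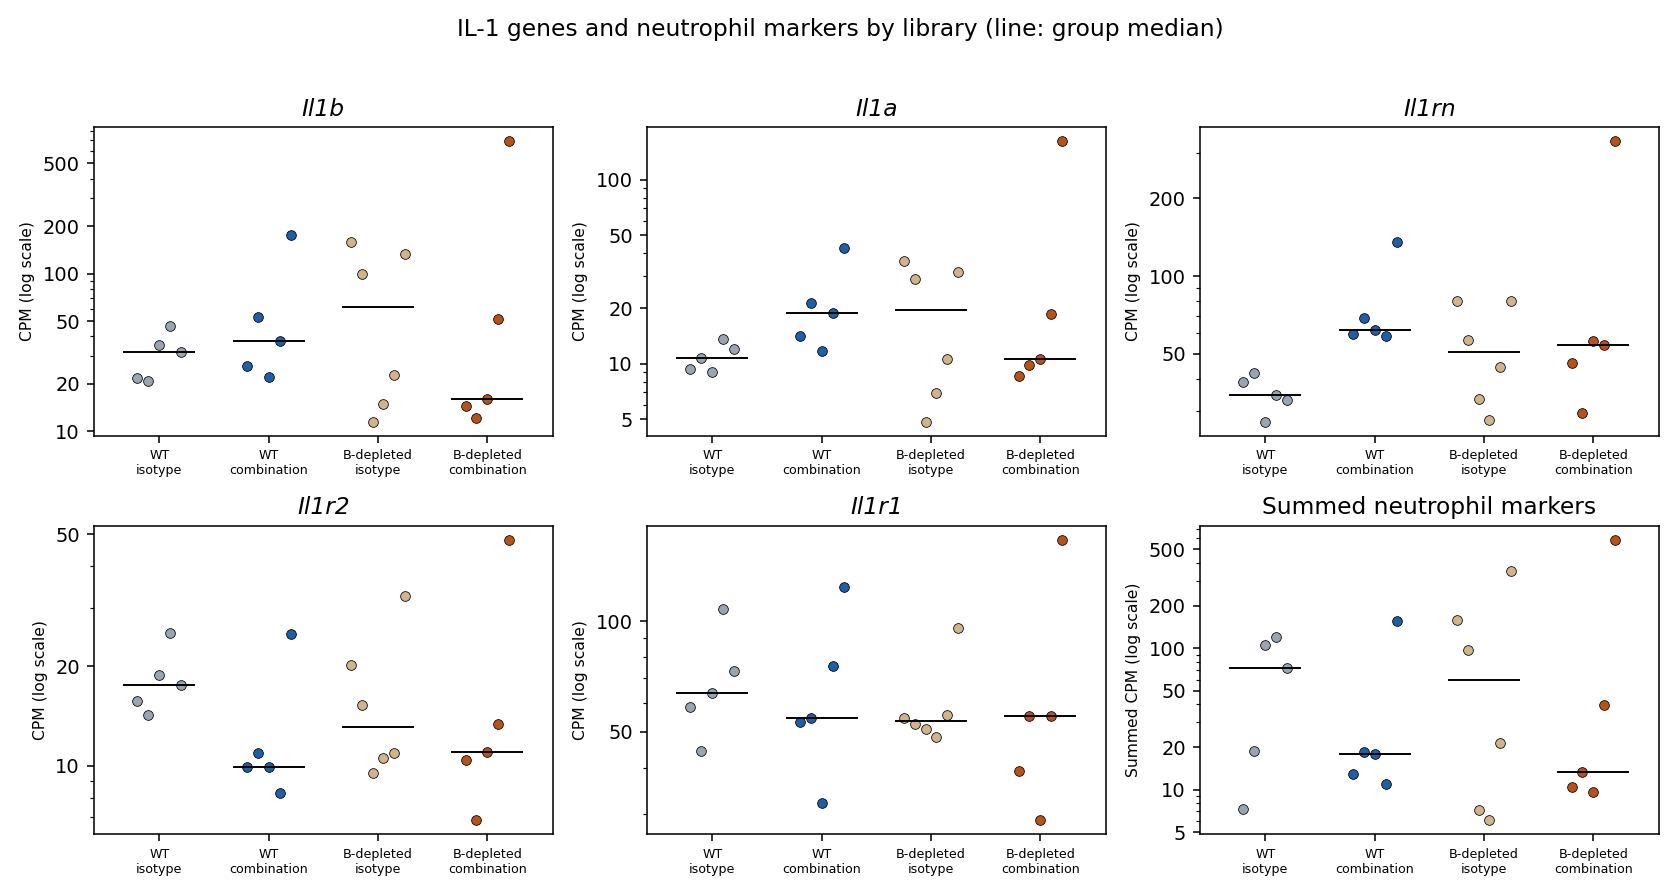
Level (CPM, log axes) of Il1b, Il1a, Il1rn, Il1r2, Il1r1 and the sum of 7 neutrophil markers in each library, by group, with a line at the group median. B-depleted combination library 5 is highest of its group in every panel, with Il1b at 690 CPM and the neutrophil sum at 584 CPM.

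In WT tumours Il1rn was at 27.3 to 42.2 CPM under isotype and at 59.7, 69.1, 61.8, 58.4 and 136 CPM under the combination; the groups did not overlap but the change did not pass (1.15 ± 0.52, adjusted p = 0.072). Il1rl1, the IL-33 receptor of regulatory T cells, mast cells and type 2 lymphoid cells, went from 11.5 ± 4.1 to 22.2 ± 5.78 CPM without overlap and did not pass (0.98 ± 0.56, adjusted p = 0.153). Its ligand Il33, an alarmin held in nuclei, was at 43.6 ± 10.9 and 46.1 ± 17.2 CPM (0.10 ± 0.30, adjusted p = 0.804). Il34, a ligand of the CSF1 receptor, was at 33.8 ± 10.3 and 25.3 ± 7.67 CPM (-0.40 ± 0.21, adjusted p = 0.112). Values for Il4i1, an amino acid oxidase, were -0.23 (adjusted p = 0.396), for Il24 -0.75 (adjusted p = 0.169) and for Il20rb 0.28 (adjusted p = 0.211).

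Per length, the most abundant members in WT isotype tumours were Il6st (24.7 RPKM), Il13ra1 (22.3), Il4ra (20.4), Il34 (17.3) and Il1b (16.4). Under the combination in WT tumours Il2rb led at 47.1 RPKM, followed by Il18bp (36.5), Il10ra (35.9) and Il6st (34.6). In B-depleted tumours Il1b led both groups by mean, at 38.5 RPKM under isotype and 82.2 RPKM under the combination. The latter was set by library 5, and Il2rb came next in that group (30.3). The isotype mean was set mostly by libraries 1, 2 and 6, with Il1b counts of 2540, 1558 and 2542. Libraries 3, 4 and 5 had 126, 268 and 382. Neighbours in these orders were not tested against each other.

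Many effector interleukins of T cells were too scarce to test. The 27 counted but untested members had at most 158 counts in all 21 libraries together, 12 of them fewer than 10, whereas the tested members had 166 to 92142. Il13, a type 2 cytokine, had 2 counts in the WT isotype libraries and 38 in the WT combination libraries. Il4, another type 2 cytokine, had 8 and 23, Il2, the T-cell growth factor, 9 and 16, Il17f 21 and 10, and Il23r, the IL-23 receptor chain, 31 and 47. Il17a had 19 counts in all libraries and Il5 29. Il3, Il22 and 2 copies of Il11ra2 were at 0 in every library. No ligand of the IL-17 family could be tested, so its changes were not detectable at this depth.

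Reads of some members can belong to a neighbour. Exons of Il12rb2, Il18bp, Il11ra1, Il27, Il27ra, Il21, Il16, Il1b and some further tested members, among them Il34 and Il4ra, overlap those of another gene on the opposite strand. Those of Il2rg, Il10rb, Il4i1 and Il31ra overlap a gene model on the same strand. The sources used here do not say whether counting used strand, so the levels of all these members are uncertain to that extent. Il11ra1 has near-identical copies in Il11ra2.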

How the data were processed

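Raw read counts per gene in 21 libraries were deposited by the authors. The submitters' processing notes name GRCm38 as the genome, STAR 2.7.2a and cutadapt 2.4. The counting program and the annotation release: not given in the sources used here. Per the labels' protocols, total RNA of frozen tumour tissue went into TruSeq Stranded mRNA libraries. Identifiers were matched to GENCODE M21 (55227 of 55487; the other 260 held 0.0183% of counts), whose gene coordinates are printed. Genes were kept by filterByExpr (19061), scaled by TMM and fitted with edgeR 4.0.16 (robust quasi-likelihood, R 4.3.3) in 1 model of 4 groups without covariates, with calls where the Benjamini-Hochberg adjusted p was under 0.05; the biological coefficient of variation was 0.246. DESeq2 1.42.0 was the alternative test. CPM uses the library total without scaling factors, and RPKM divides it by exon length. On simulated data for the WT comparison (18828 genes) 65% of 100 genes changed 2-fold and 96% of 100 changed 4-fold were recovered, with 8 false among 169 calls. The changed genes all had a mean above 1 CPM and were a small part of the genes simulated. In the real WT comparison 50.0% of all genes were called, so these rates need not hold there or for members under 1 CPM. No 2 columns were identical. The members, lists, motifs and tests were chosen with earlier results of these data known. Members called in a comparison could be named, with full values for the 10 of smallest p and a mean of at least 1 CPM, or the 5 of smallest p where none was called, beside 28 members fixed by role; up to 4 called genes of each signalling list were named. Some genes of the marker and signalling lists are not reported here by name.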

Additional observations from a re-analysis of the deposited data

Results flagged for a closer look

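Each of the 52 tested members was searched in each of the 4 groups (208 sets) for a highest or lowest library that stands far from the rest by Dixon's criterion. Chance alone marks about 1 in 20 groups. The search found 33 values, 18 of them in B-depleted combination library 5, against 6 in WT combination library 5 and 4 in B-depleted isotype library 6.

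In B-depleted combination library 5 the high values, all in CPM, were Il1b 690, Il1rn 333, Il4ra 317, Il1r1 166, Il1a 162, Il13ra1 142, Il18rap 117, Il17ra 94.0, Il1rap 66.9, Il7r 56.8, Il1f9 54.6, Il10rb 48.0, Il1r2 48.0, Il15ra 38.9, Il1rl1 35.0, Il21r 34.8, Il6 13.9 and Il23a 3.93. The other 4 libraries of the group had at most 51.6 CPM of Il1b, 56.3 CPM of Il1rn and 33.4 CPM of Il7r. WT combination library 5 was high for Il4ra (290 CPM), Il1b (175 CPM), Il1rn (136 CPM), Il1r2 (25.0 CPM), Il1f9 (11.5 CPM) and Il6 (4.56 CPM).

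B-depleted isotype library 6 was high for Il1r1 (95.6 CPM), Il6 (14.8 CPM) and Il23a (3.91 CPM) and low for Il12rb1 (23.4 CPM, the others at 40.4 to 46.5). The remaining values were 1 per library. WT combination library 1 was low for Il12b (1.29 CPM, the others at 2.37 to 2.73), and WT isotype library 3 for Il17ra (27.6 CPM, the others at 43.6 to 49.9). WT combination library 2 was high for Il1rl1 (32.4 CPM, the others at 18.2 to 21.4), B-depleted combination library 3 for Il34 (38.4 CPM, the others at 26.6 to 28.4) and B-depleted combination library 2 for Il4i1 (7.93 CPM, the others at 3.71 to 4.62).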

How the results depend on the processing

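In WT tumours the number of called members was 31, and it was 31 with median-ratio size factors, 32 with DESeq2, 30 without a filter on low counts, 34 with only the 2 groups in the fit and 27 to 38 with 1 library left out. The share of all genes called was 50.0% in the main fit. In the other fits, in the same order, it was 50.3%, 52.9%, 21.6%, 47.7% and 39.9% to 53.0%. With the Y-linked level as a covariate the number of called members was 1 (0.404% of all genes). The log2 changes of Il11ra1 (-0.12), Il12b (-0.05), Il13ra1 (-0.11), Il15 (-0.14), Il16 (-0.20), Il17ra (-0.59), Il17rc (0.18), Il18 (-0.24), Il3ra (-0.14) and Il6st (-0.53) then had the opposite sign. For B-depleted against WT under the combination the number was 24, and 15 without a filter, 16 with only those groups, 0 with the Y-linked covariate (Il3ra then at 0.01) and 11 to 30 with 1 library left out. The share of all genes was 29.1% in the main fit. In the other fits, in the same order, it was 8.45%, 21.1%, 0.021% and 11.3% to 39.3%. The B-depleted response had 0 calls (0.341% of all genes), 4 with DESeq2 (2.08%), 10 without 3 isotype libraries (5.4%) and 0 to 3 with 1 left out (0.0579% to 0.927%). The interaction had 0 calls (0.0262% of all genes), 4 with DESeq2 (6.35%), 5 without 2 WT isotype libraries (10.1%) and 0 to 4 with 1 left out (0.0% to 7.97%). B-depleted against WT under isotype had 0 calls in each of these fits, 0 to 0 with 1 left out, and at most 0.126% of all genes were called. The sets of 2 and 3 libraries were chosen after seeing the data. The causes of these changes were not tested.

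With the title number as a replicate block the 5 comparisons (in the order WT response, B-depleted response, isotype, combination, interaction) had 33, 0, 0, 25 and 0 calls, and with the number of the description code as a replicate block 32, 0, 0, 22 and 0. The shares of all genes called, in that order, were 50.3%, 0.173%, 0.00525%, 31.9% and 0.0% with the title number. With the description code they were 43.3%, 0.0734%, 0.00525%, 27.1% and 0.0262%. Whether the title or description numbers pair the libraries is not settled here. After group means were removed, same-numbered libraries correlated over the 2000 most variable genes. The values were -0.451 to 0.647 (title, 10 of 30 pairs over 0.1) and -0.428 to 0.647 (description, 7 of 27). Differently numbered libraries were not compared, so these values cannot decide it. Members under 1 CPM, such as Il20ra and Il5ra, are limited by depth.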

Other observations

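Among the members below the count limit, Il17d had 45 of its 66 counts in the WT combination libraries, at 11, 3, 0, 24 and 7 by library. This sum was not tested.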
